A study of Mus musculus with 8 samples.

Results

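The genes described here encode the muscle acetylcholine receptor and the proteins that gather and serve it at the neuromuscular junction, the synapse between a motor nerve and a muscle fibre. They were taken by symbol, 1 probe set per gene, and all 8 were measured among 12393 genes: the receptor subunit genes Chrna1, Chrnb1, Chrnd, Chrng and Chrne, the kinase gene Musk, the scaffold gene Rapsn and the acetylcholinesterase gene Ache. Expression was measured in total RNA on 8 Affymetrix arrays as log2 values per probe set. There were 4 soft tissue sarcomas from mice with a conditional Braf allele, BrafCa, on both chromosomes (Ca/Ca; tumours 1, 2, 3 and 5), 2 sarcomas from mice with it on 1 chromosome (Ca/+; tumours 1 and 2), and 1 muscle of each genotype. All mice, the muscle donors included, carried floxed p53 alleles on both chromosomes (p53 Fl/Fl). The tumours were started by an injected adenovirus that makes Cre, the recombinase that acts on floxed and other conditional alleles. The muscles came from hind limbs that bore no tumour. The sources used here do not give which cells took up the virus, nor the age, sex or strain of the mice. The tissue tag of every array reads muscle, so tissue was taken from the titles.

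A nerve releases acetylcholine, and the receptor, a ring of alpha, beta, delta and either gamma or epsilon subunits, lets cations into the fibre. Gamma belongs to the receptor of fetal and denervated muscle, and epsilon replaces it in innervated adult fibres. Agrin from the nerve acts through LRP4 on the kinase MuSK, rapsyn then binds the receptors into clusters, and acetylcholinesterase ends the signal. In adult fibres these genes are read mainly by the nuclei under the synapse, and loss of the nerve opens several of them, Chrna1 and Chrng among them, along the whole fibre.

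The muscle arrays carried the fibre markers their labels call for, and the mean of those markers was above the floor defined below in every sarcoma. For 20 mature fibre genes the mean was 12.66 (Ca/Ca muscle) and 12.60 (Ca/+ muscle), and it lay from 6.50 to 8.68 in sarcomas. Pearson's r across genes, a description since genes are not replicates, was 0.968 for the pair of muscles. It was 0.940 to 0.983 among sarcomas and 0.8595 to 0.932 for sarcoma and muscle pairs. Ca/Ca sarcoma 5 stood apart on the second principal component, at 63.15 against -25.2 to 5.08 for the other arrays, and the Ca/Ca muscle lay nearer to the sarcomas on the first (-65.7 against -95.06 for the Ca/+ muscle). Braf levels ran from 4.45 to 5.07, and nothing here tells if its probes lie in the altered part of the gene, so this level checks no label. In bulk RNA, fewer cells of a type and less RNA per cell cannot be told apart. No label states that each array is a different mouse, and the p-values therefore rest on the spread among these samples, which may be partly technical.

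A level was called at the floor where it lay at or under 4.92, the 95th percentile of 27 genes of retina, pituitary, tooth, kidney, germ cells and other organs over the 8 arrays. Background differs between probe sets, so this is a cautious mark and not a detection test. By it the sarcoma mean was at the floor for 4 of the 8 genes (Chrng, Chrne, Musk and Ache) and the muscle mean for 3 (Chrng, Musk and Ache).

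In sarcomas the receptor subunit genes Chrnb1 and Chrne, the scaffold gene Rapsn and the esterase gene Ache fell. Chrna1 was higher than in both muscles in 5 of 6 sarcomas but its difference did not pass, and Chrnd, Chrng and Musk did not pass either. Of 12393 genes tested by limma, 26.3% differed between sarcoma and muscle at an adjusted p under 0.05, 13.2% being lower and 13.1% higher in sarcoma. Of the 8 genes, 4 were lower, 0 were higher and 4 did not pass, with 6 at an unadjusted p under 0.05, as were 4696 of the 12393 genes. Their median difference was -0.60 on the log2 scale, against 0.026 over all genes. All 6 sarcomas lay below both muscles for 5 genes (Chrnb1, Chrne, Musk, Rapsn and Ache), as they did for 19% of all genes, and above both for 0, against 20% of all genes.

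**Figure D1:**
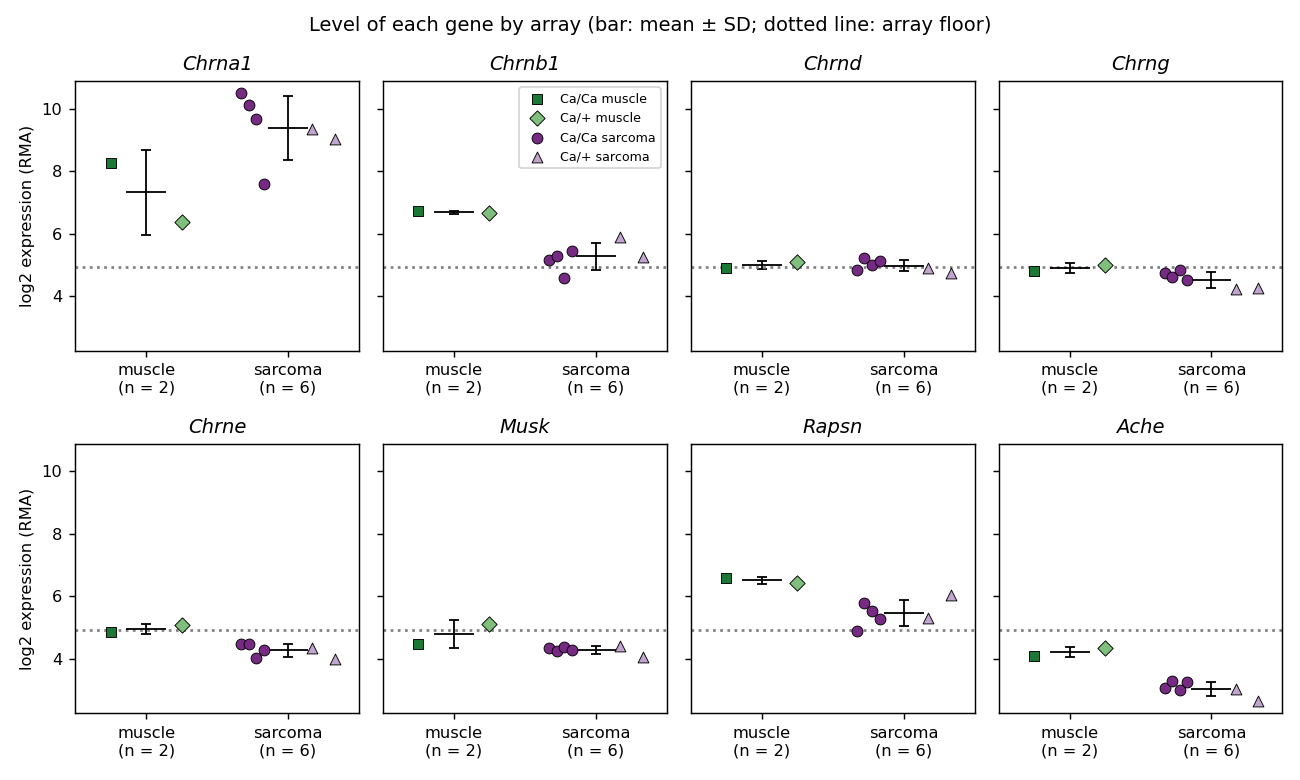
Each panel plots log2 expression (vertical axis) of 1 gene in 2 muscles and 6 sarcomas, with points coloured by Braf genotype, bars for mean ± SD and a dotted line at the floor of 4.92. For Chrna1, 5 of 6 sarcomas lie above both muscles, up to 10.50, while all 6 sarcomas lie below both muscles for Chrnb1, Chrne, Musk, Rapsn and Ache.

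The stretches before the start sites of 4 subunit genes are shown as a description. The muscle factors MyoD and myogenin are known to act on receptor genes through E-boxes. A part of either factor in the tissue differences was not tested. RefSeq sequences (GRCm38.p6) were listed for 6 of the 8 genes, the others being Chrnd and Rapsn. Each line gives 250 bases that end at the annotated start, 5′ to 3′, at chr2:73580339-73580588 (minus strand) for Chrna1, chr11:69795938-69796187 (minus strand) for Chrnb1, chr1:87205561-87205810 (plus strand) for Chrng and chr11:70619195-70619444 (minus strand) for Chrne. Capitals mark E-box letters (CANNTG) and N-box letters (CCGGAA or its reverse complement, an Ets factor motif named for synapse-specific genes).
Chrna1: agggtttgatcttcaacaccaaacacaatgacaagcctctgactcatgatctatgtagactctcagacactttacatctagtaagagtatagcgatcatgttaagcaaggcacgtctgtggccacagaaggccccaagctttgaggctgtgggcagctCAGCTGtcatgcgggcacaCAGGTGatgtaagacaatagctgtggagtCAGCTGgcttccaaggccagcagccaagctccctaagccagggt
Chrnb1: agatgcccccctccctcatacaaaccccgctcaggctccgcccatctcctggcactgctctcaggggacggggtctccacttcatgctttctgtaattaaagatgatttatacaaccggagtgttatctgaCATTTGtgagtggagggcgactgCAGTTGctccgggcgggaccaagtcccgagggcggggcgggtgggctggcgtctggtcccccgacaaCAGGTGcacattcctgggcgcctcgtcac
Chrng: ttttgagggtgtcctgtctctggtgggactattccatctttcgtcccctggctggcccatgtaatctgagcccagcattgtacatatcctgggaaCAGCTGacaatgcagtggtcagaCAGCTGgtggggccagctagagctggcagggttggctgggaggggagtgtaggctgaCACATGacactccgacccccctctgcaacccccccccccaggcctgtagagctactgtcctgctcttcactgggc
Chrne: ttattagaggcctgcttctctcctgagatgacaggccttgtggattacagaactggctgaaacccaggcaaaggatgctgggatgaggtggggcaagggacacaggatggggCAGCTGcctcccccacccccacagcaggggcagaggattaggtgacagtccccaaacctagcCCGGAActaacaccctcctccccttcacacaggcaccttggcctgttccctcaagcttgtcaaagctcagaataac
Chrna1, Chrnb1 and Chrng each held 3 E-boxes and Chrne held 1. The form CAGCTG, a subset of CANNTG that reads the same on both strands, occurred 2 times before Chrna1, 2 times before Chrng, 1 time before Chrne and 0 times before Chrnb1. Of the 2 listed genes not shown, Musk held 3 E-boxes, 1 of them CAGCTG, and Ache held 1, in another form. An N-box occurred 1 time, before Chrne, with its first base 76 bases before the start. Among 32851 RefSeq promoters of the same length, 66.2% held at least 1 E-box, 12.2% more than 2, 13% at least 1 CAGCTG, 1.26% more than 1, and 12% an N-box. These matches describe letters only. Chrna1 and Chrng, with 2 CAGCTG each, had tissue differences of 2.06 and -0.38 on the log2 scale, neither past the threshold.

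Chrna1 encodes the alpha subunit, which carries most of the acetylcholine binding site. Its log2 level was 10.50 in Ca/Ca sarcoma 5, 10.11 in Ca/Ca sarcoma 3, 9.69 in Ca/Ca sarcoma 2 and 7.59 in Ca/Ca sarcoma 1. It was 9.36 in Ca/+ sarcoma 1 and 9.04 in Ca/+ sarcoma 2, against 8.28 (Ca/Ca) and 6.36 (Ca/+) for the muscles. In 5 of 6 sarcomas the level was above both muscles, and Ca/Ca sarcoma 1 lay between the muscles, so the groups overlapped. The sarcoma mean was 9.38 ± 1.02 (SD, n = 6) and the muscle mean 7.32 ± 1.36 (SD, n = 2). The difference of 2.06 (SE 0.75), a 4.18-fold higher mean, had an adjusted p of 0.0782 in limma and did not pass. Without Ca/Ca sarcoma 1 it was 2.42 (adjusted p = 0.0209), and with Ca/+ arrays only it was 2.84 (0.0256), a fit of 2 sarcomas and 1 muscle in which the muscle is assumed to vary like the sarcomas. With Ca/Ca arrays only, 4 sarcomas and 1 muscle, it was 1.19 (0.626). Without the Ca/+ muscle it was 1.10 (0.537), and without the Ca/Ca muscle 3.02 (0.0595).

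The muscles themselves differed more in Chrna1 than in any other gene of the group. The Ca/Ca muscle was 1.92 higher than the Ca/+ muscle on the log2 scale, a gap exceeded by 1.74% of all genes, while the other 7 genes differed by 0.07 to 0.64 in size. This pair has 1 array per genotype and no test. In the same 2 arrays the neurofilament gene Nefl read 9.05 and 3.13, Ncam1 6.56 and 4.33, the myogenin gene Myog 6.59 and 5.85, and Runx1 6.37 and 5.59, each higher in the Ca/Ca muscle. Other genes of the same lists were lower there, among them Nefh (3.10 and 3.44), Syp (4.73 and 4.88), Myod1 (6.72 and 6.89) and Myf6 (9.41 and 9.72). Of the whole lists, the Ca/Ca muscle was higher in the means of motor nerve (4.61 and 3.35) and macrophage genes (10.72 and 9.38). It was also higher in those of fibroblast (11.28 and 10.36) and Schwann cell genes (7.39 and 6.59). It was lower in the satellite cell (5.68 and 5.94) and endothelial means (7.98 and 8.13), while the mature fibre means were close (12.66 and 12.60). The motor nerve mean includes Nefl and Nefm (7.11 and 2.78), and 5 of its 9 genes were at the floor on all arrays. The part of these differences in the Chrna1 level was not tested.

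Chrnb1 encodes the beta subunit, through which rapsyn clustering is regulated. It read 5.43, 4.57, 5.29 and 5.17 in Ca/Ca sarcomas 1, 2, 3 and 5, 5.895 and 5.26 in Ca/+ sarcomas 1 and 2, and 6.72 and 6.65 in the Ca/Ca and Ca/+ muscles. All 6 sarcomas were below both muscles without overlap, and Ca/Ca sarcoma 2 was lowest. Chrnb1 fell by 1.42 (SE 0.29, adjusted p = 0.00842 in limma), from 6.69 ± 0.05 (SD, n = 2) to 5.27 ± 0.43 (SD, n = 6), a 2.67-fold lower mean. The direction held without either muscle, but the call did not, at adjusted p = 0.0538 without the Ca/Ca muscle and 0.0682 without the Ca/+ muscle, nor did it within the Ca/Ca arrays (-1.61, 0.0813) or the Ca/+ arrays (-1.08, 0.153).

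Rapsn encodes rapsyn, the scaffold that packs receptors under the nerve. It read 5.27, 5.53, 5.77 and 4.88 in Ca/Ca sarcomas 1, 2, 3 and 5, 5.32 and 6.05 in Ca/+ sarcomas 1 and 2, and 6.58 and 6.43 in the Ca/Ca and Ca/+ muscles. No sarcoma reached a muscle level, and Ca/+ sarcoma 2 came nearest. Rapsn fell by 1.04 (SE 0.28, adjusted p = 0.0265 in limma), a 2.05-fold lower mean, from 6.51 ± 0.10 (SD, n = 2) to 5.47 ± 0.41 (SD, n = 6). The difference stayed near that size but its call was lost without the Ca/Ca muscle (-0.96, adjusted p = 0.138) and without the Ca/+ muscle (-1.11, 0.131), and within the Ca/Ca arrays (-1.22, 0.144) and the Ca/+ arrays (-0.75, 0.296).

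The difference between Chrna1 and each of the other genes was read within each array, which can show unequal change and not which RNA is more abundant. Chrna1 minus Chrnb1 was 1.56 (Ca/Ca muscle) and -0.29 (Ca/+ muscle), and 2.16, 5.12, 4.82 and 5.33 in Ca/Ca sarcomas 1, 2, 3 and 5. It was 3.46 and 3.79 in Ca/+ sarcomas 1 and 2, so all 6 sarcomas lay above both muscles, Ca/Ca sarcoma 1 included. Chrna1 minus Rapsn and Chrna1 minus Ache also lay above both muscles in 6 of 6 sarcomas, and Chrna1 minus Chrnd, Chrng, Chrne or Musk in 5 of 6, Ca/Ca sarcoma 1 being the exception. Chrnb1, Chrne, Musk, Rapsn and Ache themselves lay below both muscles in all 6 sarcomas, as did 19% of all genes, which raises these differences. The share of all genes with such a difference from Chrna1 was not taken. The reading within arrays was chosen after the values were seen and was given no test.

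Chrng and Chrne encode the fetal gamma and the adult epsilon subunit. Chrne read 4.27, 4.03, 4.48 and 4.47 in Ca/Ca sarcomas 1, 2, 3 and 5, 4.34 and 3.98 in Ca/+ sarcomas 1 and 2, and 4.84 and 5.07 in the Ca/Ca and Ca/+ muscles. Chrne fell by 0.69 (SE 0.17, adjusted p = 0.0203 in limma), with all 6 sarcomas at the floor and below both muscles. The muscle mean of 4.95 was 0.036 above the floor, so the size of the fall is not measured. The call was lost without the Ca/Ca muscle (-0.80, adjusted p = 0.0539), without the Ca/+ muscle (-0.58, 0.186), and within either genotype (0.294 for Ca/Ca, 0.123 for Ca/+). Chrng read 4.49, 4.83, 4.60 and 4.74 in Ca/Ca sarcomas 1, 2, 3 and 5, 4.22 and 4.25 in Ca/+ sarcomas 1 and 2, and 4.79 and 5.00 in the muscles in the same order of genotype. The groups overlapped through Ca/Ca sarcoma 2. Sarcoma minus muscle was -0.38 (SE 0.19, adjusted p = 0.195) and did not pass, except under ribosomal protein centring (-0.77, adjusted p = 0.0136). The other Chrng probe sets, 2 in number, lay between 2.15 and 2.65 on every array and did not pass (adjusted p = 0.413 and 0.597), so a fetal subunit RNA above the floor was not detected in any sarcoma by the 3 probe sets.

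The balance of fetal and adult subunit was compared as Chrng minus Chrne within an array. It was -0.047 (Ca/Ca) and -0.063 (Ca/+) for the muscles, and its lowest and highest sarcoma values were -0.12 (Ca/+ sarcoma 1) and 0.79 (Ca/Ca sarcoma 2). Of the sarcomas 5 lay above both muscles and 1 below. The sarcoma mean was 0.26 ± 0.30 (SD, n = 6). The difference of 0.31 from the muscle mean did not pass (exact two-sided permutation test over 28 splits, p = 0.25, smallest possible p 0.0357). It was 0.21 without Ca/Ca sarcoma 2 (exact p = 0.286) and 0.48 with the mean of each gene's probe sets (exact p = 0.0714). Both genes lay at or near the floor, so the comparison has little range.

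Chrnd, the delta subunit gene, read 5.12, 4.99, 5.21 and 4.84 in Ca/Ca sarcomas 1, 2, 3 and 5, 4.90 and 4.75 in Ca/+ sarcomas 1 and 2, and 4.91 and 5.08 in the Ca/Ca and Ca/+ muscles. The tissues overlapped, with a difference of -0.03 (SE 0.15, 95% interval -0.37 to 0.32, adjusted p = 0.918 in limma). The interval concerns a probe set at the floor in 3 of 6 sarcomas and 1 of 2 muscles, so a change of a rare RNA was not detectable. Its sign turned under cyclic loess and it passed as lower under ribosomal protein centring (-0.43, adjusted p = 0.0458).

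Musk, the receptor tyrosine kinase that agrin activates, read 4.28, 4.37, 4.26 and 4.36 in Ca/Ca sarcomas 1, 2, 3 and 5, 4.39 and 4.05 in Ca/+ sarcomas 1 and 2, and 4.48 and 5.12 in the Ca/Ca and Ca/+ muscles. The sarcomas lay close together at the floor, all below both muscles, while the Ca/Ca muscle was nearer to the sarcomas than to the other muscle. The difference of -0.52 (SE 0.18) had an adjusted p of 0.0691. It rested on which muscle was used: it passed without the Ca/Ca muscle (-0.84, adjusted p = 0.0189), and was -0.20 (0.586) without the Ca/+ muscle and -0.16 (0.664) within the Ca/Ca arrays. It also passed under housekeeping (0.0371) and ribosomal protein centring (0.00937).

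Ache, the enzyme that clears acetylcholine from the synapse, had the smallest adjusted p of the group. It read 3.25, 2.98, 3.27 and 3.06 in Ca/Ca sarcomas 1, 2, 3 and 5, 3.01 and 2.64 in Ca/+ sarcomas 1 and 2, and 4.09 and 4.33 in the Ca/Ca and Ca/+ muscles. The groups were well apart. Ache fell by 1.17 (SE 0.18, adjusted p = 0.00265 in limma), and the call held without any 1 array (adjusted p from 0.00301 to 0.0406). It was lost with Ca/Ca arrays only (0.0715) and with Ca/+ arrays only (0.0595). Both tissue means lie at the floor by the mark used here, so no fold is given. Ache is also made by red cells, and of 4 measured erythroid genes 2 fell and 2 did not pass, where 13.2% of all genes fell. Those that fell were Alas2 (-2.18) and Slc4a1, which was at the floor on all arrays, so the size of its fall is not measured. The erythroid list mean was 3.89 to 4.65 in sarcomas and 5.24 and 5.31 in the muscles, with 3 of the 4 genes at the floor on all arrays. Alas2 was above the floor except in Ca/+ sarcoma 2 (4.89). The part of red cells in the Ache result was not tested.

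**Figure D2:**
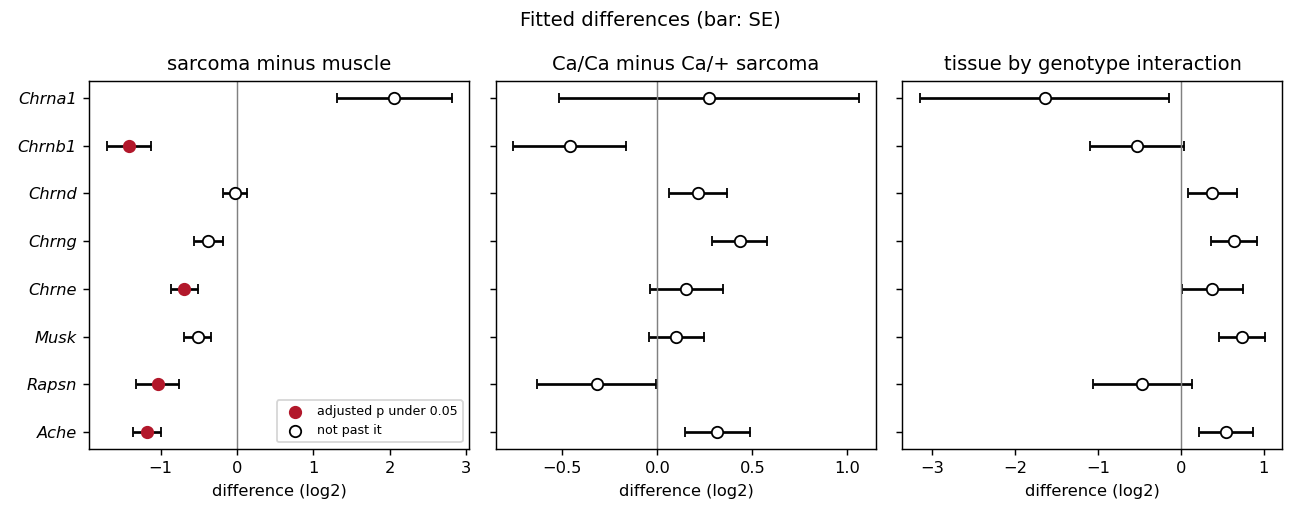
Fitted log2 differences (horizontal axis) with SE bars for the 8 genes in 3 comparisons, filled where the adjusted p is under 0.05. In sarcoma minus muscle, Chrnb1, Chrne, Rapsn and Ache are filled and lie left of 0 while Chrna1 lies at 2.06 and is open. No gene is filled in the genotype or interaction panels.

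The genotype of the tumour was compared in the 6 sarcomas. None of the 8 genes passed in limma (adjusted p from 0.619 to 0.946), and 0% of all genes did, with 1 of the 8 and 971 of 12393 genes at an unadjusted p under 0.05. The gene was Chrng, whose 4 Ca/Ca sarcomas (4.49 to 4.83) lay above both Ca/+ sarcomas (4.22 and 4.25), a difference of 0.43 (SE 0.14, adjusted p = 0.619), without overlap as for 9.68% of all genes. Its other probe sets differed by 0.037 and -0.042, and all of these levels are at the floor. Chrna1 differed by 0.27 (SE 0.79), with a 95% interval from -1.63 to 2.18, since the Ca/Ca sarcomas spread from 7.59 to 10.50. The value for Chrnb1 was -0.46 (95% interval -1.18 to 0.26) and for Rapsn -0.32 (95% interval -1.08 to 0.44). The intervals for Chrna1 and Rapsn reach the size of their tissue difference, so genotype differences that large are not excluded by these arrays. The tissue difference did not pass as different between genotypes for any of the 8 (adjusted p from 0.666 to 0.936, with 1 at an unadjusted p under 0.05, as were 895 of 12393 genes). That gene was Musk (0.74, SE 0.28, adjusted p = 0.666), and 0.00807% of all genes passed.

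Other genes of the synapse were read from lists of pathway members. In sarcoma minus muscle, 13.1% of all genes rose and 13.2% fell. Of 14 measured genes of agrin, MuSK and neuregulin signalling, 0 rose in limma, 3 fell and 11 did not pass, with a median difference of 0.15 against 0.026 over all genes. Dvl1, an adaptor reported to bind MuSK, fell by 1.08 (SE 0.22, adjusted p = 0.00805), Dnaja3, a MuSK-binding chaperone, fell by 0.99 (SE 0.16, adjusted p = 0.00288), and the neuregulin receptor gene Erbb3 fell by 0.88 (SE 0.27, adjusted p = 0.0452). The agrin gene Agrn read from 5.26 to 8.07 in sarcomas and 6.67 and 6.23 in the Ca/Ca and Ca/+ muscles and did not pass (-0.18, SE 0.69, adjusted p = 0.879). The agrin receptor gene Lrp4 did not pass either (0.085, adjusted p = 0.886). The Ets factor genes of the N-box, Gabpa (0.29, adjusted p = 0.330) and Etv5 (1.01, 0.0744), had values above 0 and did not pass. Gabpb1, which encodes the partner subunit of the Gabpa product, was also above 0 and did not pass (0.56, 0.0612).

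Of 17 measured genes of the synaptic scaffold and basal lamina, 1 rose, 3 fell and 13 did not pass, with a median of -0.38. Over all genes 13.1% rose and 13.2% fell, so these counts are no result about the list. Dag1, the dystroglycan gene, fell by 1.53 (SE 0.23, adjusted p = 0.00214), Lamb2, the laminin beta chain of the synaptic lamina, fell by 1.304 (SE 0.22, adjusted p = 0.0035), and Lama2 fell by 1.12 (SE 0.21, adjusted p = 0.00619). Ncam1, an adhesion molecule that spreads along denervated fibres and is also made by nerve and Schwann cells, rose by 2.84 (SE 0.83, adjusted p = 0.0367). Utrn, the utrophin gene, did not pass (-0.51, adjusted p = 0.255). Colq, the collagen tail that anchors acetylcholinesterase, was at the floor on all arrays and did not pass (-0.23, adjusted p = 0.365).

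Of 9 measured regulators from myogenesis and denervation, 1 rose, 5 fell and 3 did not pass, with a median of -0.66. Over all genes 13.1% rose and 13.2% fell. Fbxo32, a ubiquitin ligase of wasting muscle, fell by 3.94 (SE 0.63, adjusted p = 0.00294) and Myf6 fell by 3.53 (SE 0.56, adjusted p = 0.00281). The MyoD gene Myod1 fell by 2.46 (SE 0.16, adjusted p = 4.02e-05), from 6.72 and 6.89 in the Ca/Ca and Ca/+ muscles to between 4.14 and 4.66 in the sarcomas, which is under the floor. Myog fell by 1.58 (SE 0.24, adjusted p = 0.00219), with sarcomas from 4.299 to 4.96, and Myf5, at the floor on all arrays, by 0.66 (adjusted p = 0.0122). Runx1, a factor induced in denervated muscle and present in blood cells and other lineages, rose by 1.70 (SE 0.30, adjusted p = 0.00466), from 6.37 and 5.59 to between 7.12 and 8.18. Myod1 was at the floor in all 6 sarcomas, and a link between its level and that of the receptor genes was not tested.

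The rest of the acetylcholine receptor family gave little signal. All 9 measured neuronal nicotinic subunit genes and all 3 measured muscarinic genes were at the floor on every array. Chrnb4 fell by 0.49 (SE 0.13, adjusted p = 0.0292) within that range, and the other 8 and 3 genes did not pass.

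**Figure D3:**
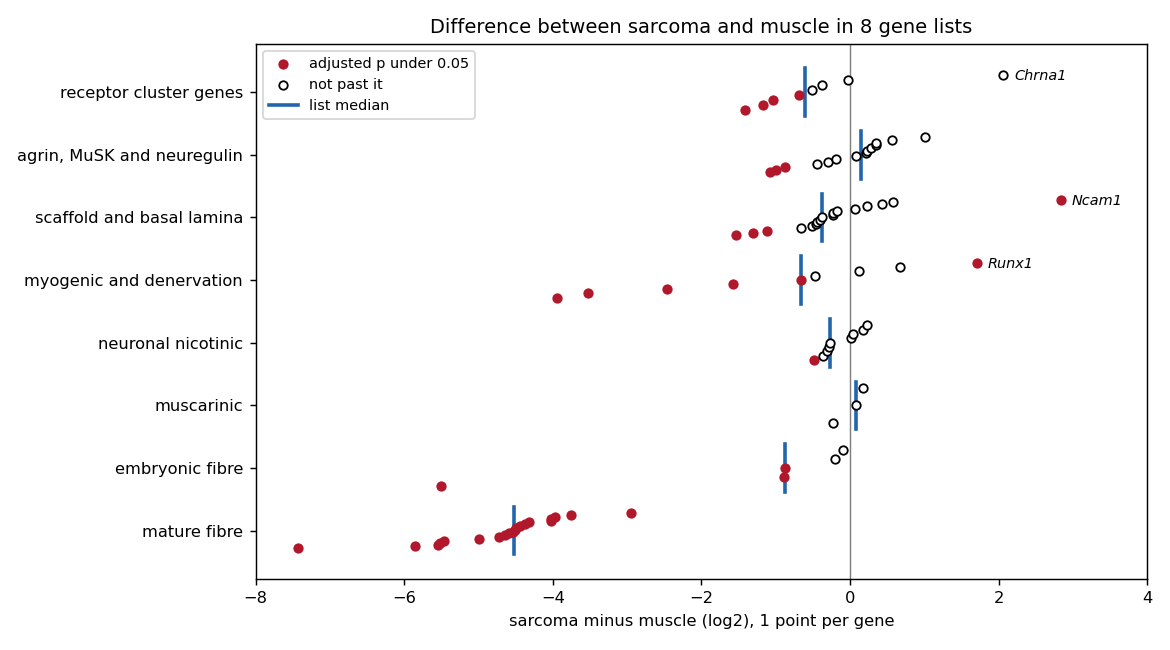
Each point is 1 gene, placed by its log2 difference between sarcoma and muscle (horizontal axis) in 8 lists (rows), filled where the adjusted p is under 0.05, with a bar at the list median. Chrna1 (2.06, open), Ncam1 (2.84) and Runx1 (1.70) lie to the right, while all 20 mature fibre genes lie to the left around a median of -4.52.

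Markers of fibres and of other cells were read on the same arrays, where 13.1% of all genes rose and 13.2% fell. All 20 mature fibre genes fell (median -4.52), and of 5 embryonic fibre genes 3 fell and 2 did not pass. Actc1 fell most, by 5.51 (adjusted p = 2.22e-05 in limma), from 10.65 and 9.94 in the Ca/Ca and Ca/+ muscles. Myh3 (-0.88) and Myh8 (-0.89), the embryonic and perinatal myosin genes, were at the floor on every array. Of 9 measured motor nerve genes 3 rose (Nefl by 4.65, Nefm by 3.66, and Gap43), 1 fell (Syt2, -0.49, at the floor on every array) and 5 did not pass. Nefl and Nefm were at the floor in the Ca/+ muscle, so the size of their rise is not fully measured. Among the 5 that did not pass was Slc18a3, the acetylcholine loader of nerve endings, also at the floor. Of 5 satellite cell genes 1 rose (Vcam1 by 2.16), 3 fell (Cdh15, Itga7, and Pax7, which was at the floor on every array) and 1 did not pass. Of 5 Schwann cell genes 2 fell (S100b, -1.89, and Mal, -1.25), and of 7 macrophage genes 1 rose (Cd68 by 0.98) and of 7 fibroblast genes 1 rose (Thy1 by 1.73), the rest not passing. Of 5 endothelial genes 4 fell. The part of these cell types in the receptor gene results was not tested.

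Among the sarcomas the receptor genes stood in different relation to the fibre genes. Rapsn was highest (6.05, 5.77 and 5.53) in the 3 sarcomas with the highest fibre means (8.56, 8.28 and 8.68) and lower in the other 3. For Chrna1, Ca/+ sarcoma 1 had the lowest fibre mean (6.50) and a Chrna1 level of 9.36, while Ca/Ca sarcoma 1 had the lowest Chrna1 (7.59) at a fibre mean of 7.58. Ca/Ca sarcoma 5 had the highest Chrna1 (10.50), and also the lowest Rapsn (4.88), at a fibre mean of 7.94. Chrnb1 was highest (5.895) where the fibre mean was lowest and lowest (4.57) where the fibre mean was highest, at 8.68 in Ca/Ca sarcoma 2. All 8 genes were higher relative to the fibre mean in 6 of 6 sarcomas than in both muscles. The fibre mean was itself far lower in sarcomas, so any gene that fell less comes out this way. The share of all genes was not taken, so no trait particular to these 8 is shown. The values of gene minus fibre mean in the Ca/Ca and Ca/+ muscles were -4.38 and -6.24 for Chrna1 (0.019 to 2.86 in sarcomas), -5.94 and -5.95 for Chrnb1 (-4.11 to -0.60) and -6.08 and -6.17 for Rapsn (-3.15 to -1.18), with no test.

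**Figure D4:**
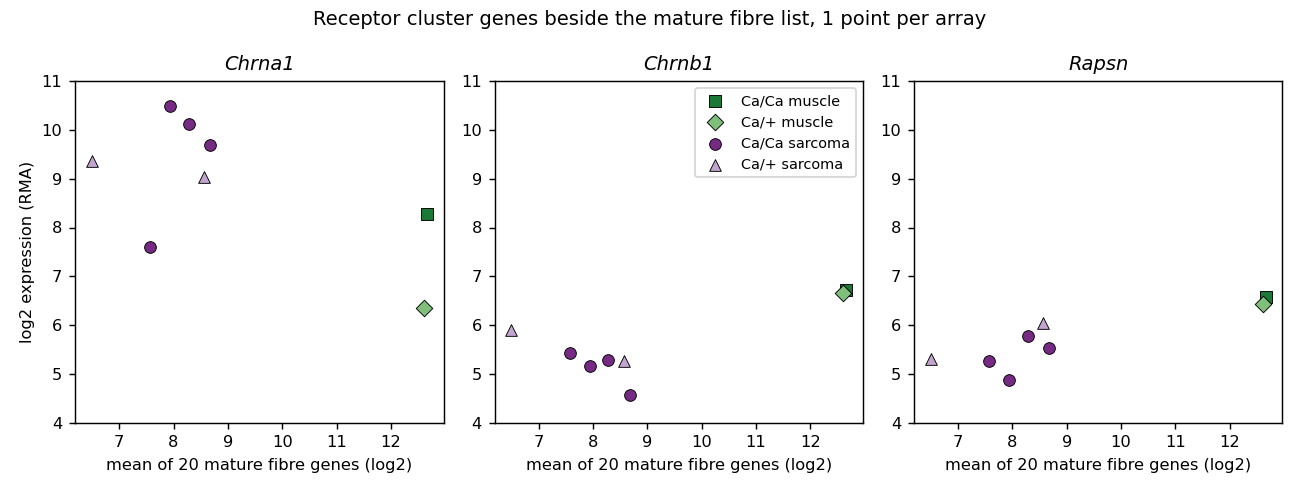
Log2 expression of Chrna1, Chrnb1 and Rapsn (vertical axis) is plotted against the mean log2 level of 20 mature fibre genes (horizontal axis), with 1 point per array. The muscles sit near 12.6 on the horizontal axis, and Chrna1 is above both muscles in 5 sarcomas whose fibre means run from 6.50 to 8.68.

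The genes with the most similar pattern were found by the root mean square difference over the 8 arrays after each gene was centred on its own mean, for the 2 receptor genes whose range exceeded 2 on the log2 scale. Nearest to Chrna1 were Cst6, a cysteine protease inhibitor (0.39), Sprr1a, a cornified envelope protein also induced in injured nerve cells (0.48), and Twist2, a mesenchymal transcription factor (0.53). Cst6 shared the low level in Ca/Ca sarcoma 1 (6.71, against 7.62 to 9.32 in the other sarcomas). The tissue differences were 1.47 for Cst6, 1.58 for Sprr1a, whose muscle values were at the floor, and 2.37 for Twist2. Nearest to Chrnb1 were Uqcc1, an assembly factor of respiratory complex III (0.22), the phosphatase gene Dusp3 (0.24) and Serac1, a mitochondrial lipid gene (0.24). Their tissue differences were -1.45, -1.42 and -1.41, the last not a measured size since Serac1 was at the floor in every sarcoma and the Ca/Ca muscle. These genes were chosen for their likeness over the same arrays, which fixes the direction of their differences, so no test is given.

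**Figure D5:**
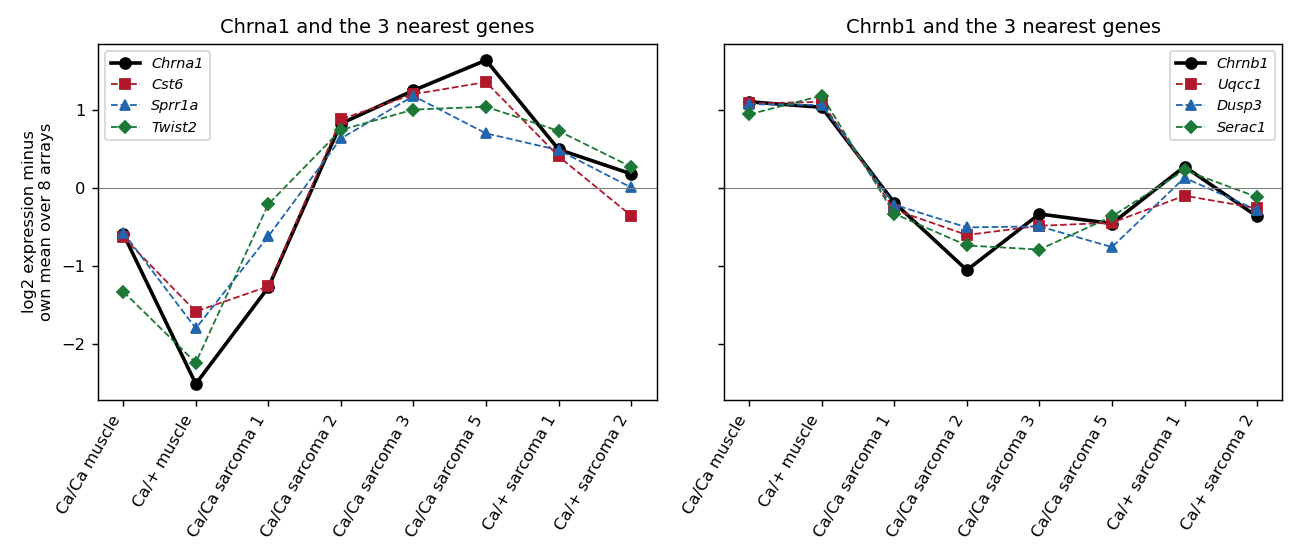
Log2 expression minus each gene's own mean over 8 arrays (vertical axis) is drawn for each array (horizontal axis), for Chrna1 (left) and Chrnb1 (right) with the 3 nearest genes of each. In the left panel the Ca/+ muscle and Ca/Ca sarcoma 1 are low, and in the right panel both muscles lie above all sarcomas. The lines only guide the eye.

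Genes beside Chrna1 on chromosome 2, in RefSeq order, were read on the same arrays. The next measured gene on 1 side, Wipf1, an actin regulator of blood cells, rose by 0.89 (SE 0.28, adjusted p = 0.0497), and on the other side Chn1, a neuronal Rac regulator, rose (adjusted p = 0.0373), the size not being measured since both muscles were at the floor. Chn1 read 4.295 and 4.38 in the Ca/Ca and Ca/+ muscles. It read 5.02, 5.86, 6.28 and 7.75 in Ca/Ca sarcomas 1, 2, 3 and 5, and 7.35 and 6.80 in Ca/+ sarcomas 1 and 2. All 6 sarcomas were above both muscles, as for 20% of all genes, with Ca/Ca sarcoma 1 lowest and Ca/Ca sarcoma 5 highest. Beyond them Gpr155 (-2.33), Scrn3 (-1.59) and Atp5g3 (-0.62) fell, and Atf2 did not pass (0.13, adjusted p = 0.683). Of the 6 neighbours 5 passed, in either direction, where 26.3% of all genes did. A trait of this stretch of the chromosome was not tested. These neighbours were looked at after the Chrna1 values were seen.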

How the data were processed

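Total RNA from 6 sarcomas and 2 muscles was labelled with biotin and measured on Affymetrix arrays. The authors deposited log2 values made with RMA, per the submitters' processing notes (version not stated). RMA commonly corrects background and gives arrays 1 distribution, so a change in total RNA is not measured. Column medians ran from 5.79 to 5.90. No array was a copy of another (at most 32 equal values of 12393). The number of arrays limits the precision.

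Of 22690 probe sets, 20380 had 1 gene symbol in the platform annotation, 691 had several and were not named, 1555 had none listed here and 64 were controls. For each of 12393 genes the probe set with the highest mean over 8 arrays was used. Of the 8 genes, 7 had 1 probe set. Columns outside the 8 arrays numbered 0.

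Tests used limma 3.58.1 in R 4.3.3 (lmFit and eBayes on all genes, Benjamini-Hochberg adjustment, threshold 0.05), which gave every adjusted p. Sarcoma minus muscle used all 8 arrays, genotype the 6 sarcomas, and the interaction 4 group means with 4 residual degrees of freedom from the sarcomas, each lone muscle being assumed to vary like them. Chrng minus Chrne was tested by exact permutation. The fits were tested on simulated data. Alternatives changed the probe set rule, the scaling, a filter on dim genes, the variance model, the covariate, the genotypes used and each array. Named genes were the 8 receptor genes, pathway list genes past the threshold with the 2 largest each way, and the 3 nearest genes; Agrn, Lrp4, Utrn, Colq, Gabpa, Gabpb1, Etv5, the marker genes and the neighbours of Chrna1 were named after their values were seen. The 8 genes and the lists were chosen with earlier results of these data known. Plots used Python 3.11.15 and matplotlib 3.10.9.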

Additional observations from a re-analysis of the deposited data

Results flagged for a closer look

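Single sarcomas far from the rest of their group were found in 7 of 108 groups examined, where chance gives about 1 in 20. In the 4 Ca/Ca sarcomas, Ca/Ca sarcoma 1 had the highest Agrn (8.07) and the lowest Myf6 (6.02), and also the lowest mean of the neuronal nicotinic list (3.56), all of whose genes lie at the floor. Over the 6 sarcomas, Ca/Ca sarcoma 3 had the lowest mean of the agrin, MuSK and neuregulin list (6.45), Ca/Ca sarcoma 5 the highest mean of the myogenic and denervation list (5.59), and Ca/+ sarcoma 2 the lowest mean of the Schwann cell list (5.83). In the 4 Ca/Ca sarcomas, Ca/Ca sarcoma 5 had the lowest Schwann cell mean (5.97). None of the 8 receptor cluster genes had such a sample.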

How the results depend on the processing

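Of 390 alternative values for the 8 genes over the 3 comparisons, 356 kept direction and side of the threshold, 14 lost the call, 7 gained one and 13 changed sign, none of the 13 past the threshold. For sarcoma minus muscle, Chrna1 kept its sign in all 20 alternatives (1.10 to 3.02). Chrnd turned under cyclic loess (0.046), with Ca/Ca arrays only (0.13), and when single arrays were left out (-0.11 to 0.057). For genotype, values turned when single arrays were left out for Chrna1 (-0.070 to 0.90), Chrne (-0.028 to 0.33), Musk (-0.072 to 0.27) and Rapsn (-0.69 to 0.046), under ribosomal protein centring for Musk (-0.010), and with another probe set for Chrng (-0.042; interaction -0.17). The tumour numbers 1 and 2 occur in both genotypes, but nothing says that they pair, and deviations of same-numbered sarcomas correlated at -0.19 and 0.29. With a replicate block for genotype, 0 genes passed, Chrna1 turned to -0.56 and Chrne to -0.0089. The count of 3256 genes for sarcoma minus muscle was 601 with Ca/Ca arrays only, 1287 with Ca/+ arrays only, 1195 without the Ca/+ muscle, and 1195 to 3451 without single arrays. The genotype count was 0 to 1 without single arrays. The interaction count of 1 was 0 without the dimmest 25% or 50% of genes, 17 with a variance trend, also with the robust form (17), and 0 to 1 without single arrays. Of all calls 49.9% were higher, against 38.7% under cyclic loess, 32.2% under housekeeping centring and 11.8% under ribosomal protein centring, which moved the median of all genes from 0.026 to 0.0098, -0.17 and -0.37. The cause was not tested. Chrna1 was 1.83, 1.87 and 1.66 under these scalings, against 2.06. Signal over background limits the sizes for genes near the floor (Chrng, Chrne, Musk and Ache).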
